A study of Mus musculus with 6 samples.

Results

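*Myc* and its network partners are the 10 genes *Myc*, *Mycn*, *Mycl*, *Max*, *Mxd1*, *Mxd3*, *Mxd4*, *Mxi1*, *Mnt* and *Mlx*, read here in pre-B cells with and without *Mef2c*. They were chosen by name, and every probe set, the group of probes on the array that reports a transcript, was used if its annotation gave exactly 1 of these symbols. All 10 of 17372 named genes in the deposited table were found, each with a single probe set. All 10 also passed the filter on low values that left 11271 genes for testing, although *Mycl* lay above it on only 2 of its 6 arrays. Affymetrix mouse expression arrays were hybridised with RNA of pre-B cells sorted from the bone marrow of mice aged 9 months, with 3 Mef2c-deficient and 3 control arrays. The Mef2c-deficient mice were Vav-Cre Mef2cfl/fl, in which the Cre recombinase is made in blood-forming cells, so that the other blood lineages had also been targeted. Controls are labelled by that word alone, and the study's methods allow 3 genotypes for them, Mef2cfl/fl, Mef2cfl/+ and Vav-Cre Mef2cfl/+. The methods call the samples independent without saying which animals they came from, so that p-values speak only of the variation among these 6 arrays, whose small number limits the precision.

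MYC, MYCN and MYCL are transcription factors that act as dimers with MAX and bind a short DNA element called the E-box. MXD proteins, MXI1 and MNT compete for MAX, bind the same element and recruit SIN3 and histone deacetylases, so that they oppose MYC. MLX is a relative of MAX that pairs with some MXD proteins, with MNT and with the glucose-responsive factors MondoA and ChREBP. In B-cell development, MYC and MYCN drive the growth and division of progenitors that receive interleukin 7 and pre-B-cell receptor signals, and the level of MYC drops as small pre-B cells stop dividing to rearrange their light chain genes.

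The E-box, CACGTG, is shown here because it is the element through which the network acts, and because several of its own genes carry it. RefSeq promoters of GRCm38.p6, spanning 250 bases before to 50 bases after the start site, were given for 9 of the 10 genes (all but *Myc*), with 3 for *Mxi1*. The motif is its own reverse complement, so that a search of either strand finds it. It occurred in 4 of these 11 promoters, those of *Max*, *Mlx*, *Mnt* and *Mxd4*, compared with 7.15% of 32851 promoters in all. The capitals mark the E-box in each line.
Max, chr12:76962234-76962263, minus strand: ggtgagcccggtCACGTGttagggggccga
Mlx, chr11:101087225-101087280, plus strand: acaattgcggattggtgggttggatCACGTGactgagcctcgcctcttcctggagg
Mnt, chr11:74830776-74830831, plus strand: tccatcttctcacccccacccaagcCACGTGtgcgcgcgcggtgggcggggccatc
Mxd4, chr5:34187899-34187954, minus strand: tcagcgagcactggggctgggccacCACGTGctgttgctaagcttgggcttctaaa
Counted from 1 at the start site, the element began at position -3 in *Max*, -40 in *Mlx*, -123 in *Mnt* and -219 in *Mxd4*. The MEF2 motif, searched on both strands, occurred in 0 of the 11 promoters and in 3.19% of all. These matches describe the letters of the windows only.

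The values below are log2 of the deposited intensity, and a difference is the mean of the Mef2c-deficient arrays minus that of the control arrays. Whether the scale was built on 2 or on e is not settled, and in the second case each difference would be 0.69 times the one printed, with the same p-value. The median difference over all genes tested was -0.36, so that a gene with no change relative to the others tested had a slightly negative value. After quantile normalization, cyclic loess or centring, this median was -0.10, -0.04 and -0.06. It also depended on the filter, at 0.07 with no filter on low values and -0.54 with the filter at the 60th percentile. A value given below against the median gene thus holds for the genes that passed the filter used here. The pre-B label was read against 9 measured markers of 12, where a marker is called measured if it had a probe set. They were all above the filter and had a log2 of the summed value of 20.32 to 20.86 in Mef2c-deficient arrays and of 20.86 to 21.11 in control arrays. The sum rested largely on *Cd79a*, *Cd79b* and *Cd24a* and says little of the other markers. Of the 9, 1 had a higher mean in Mef2c-deficient cells. Their median relative to the control mean was -0.51, -0.85 and -0.79 on Mef2c-deficient arrays 1 to 3. The arrays also differed in the RNA of other cells. The third Mef2c-deficient array, and to a lesser extent the third control array, stood above the others of their groups in markers of dendritic cells and neutrophils. In such bulk samples, fewer cells of a type and less RNA per cell cannot be told apart.

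Mef2c-deficient pre-B cells had lower values of the MYC antagonists *Mxi1* and *Mxd3* and of the MAX-like partner *Mlx* than control pre-B cells, on every array. *Myc* was higher on 2 of the 3 Mef2c-deficient arrays, *Mycn* had a lower mean, and *Max* differed little. By limma with Benjamini-Hochberg adjustment, 0 of the 10 genes had an adjusted p under 0.05 in either direction, whereas 0.0177% of all genes were lower and 0% higher. Unadjusted, 3 of the 10 had a p under 0.05 with lower values and 0 with higher values, whereas 20.9% of all genes were lower and 5.32% higher (26.2% in either direction). The groups did not overlap in the same 3 genes, all of them lower, whereas 27.1% of all genes were lower and 10.6% higher without overlap (37.7% in either direction). In 7 of the 10 the mean was lower in Mef2c-deficient cells (6 after quantile normalization, cyclic loess or centring, where *Max* was above 0), whereas it was lower in 62.3% of all genes and higher in 37.7%, so that by number these genes stood close to the rest of the array.

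**Figure D1:**
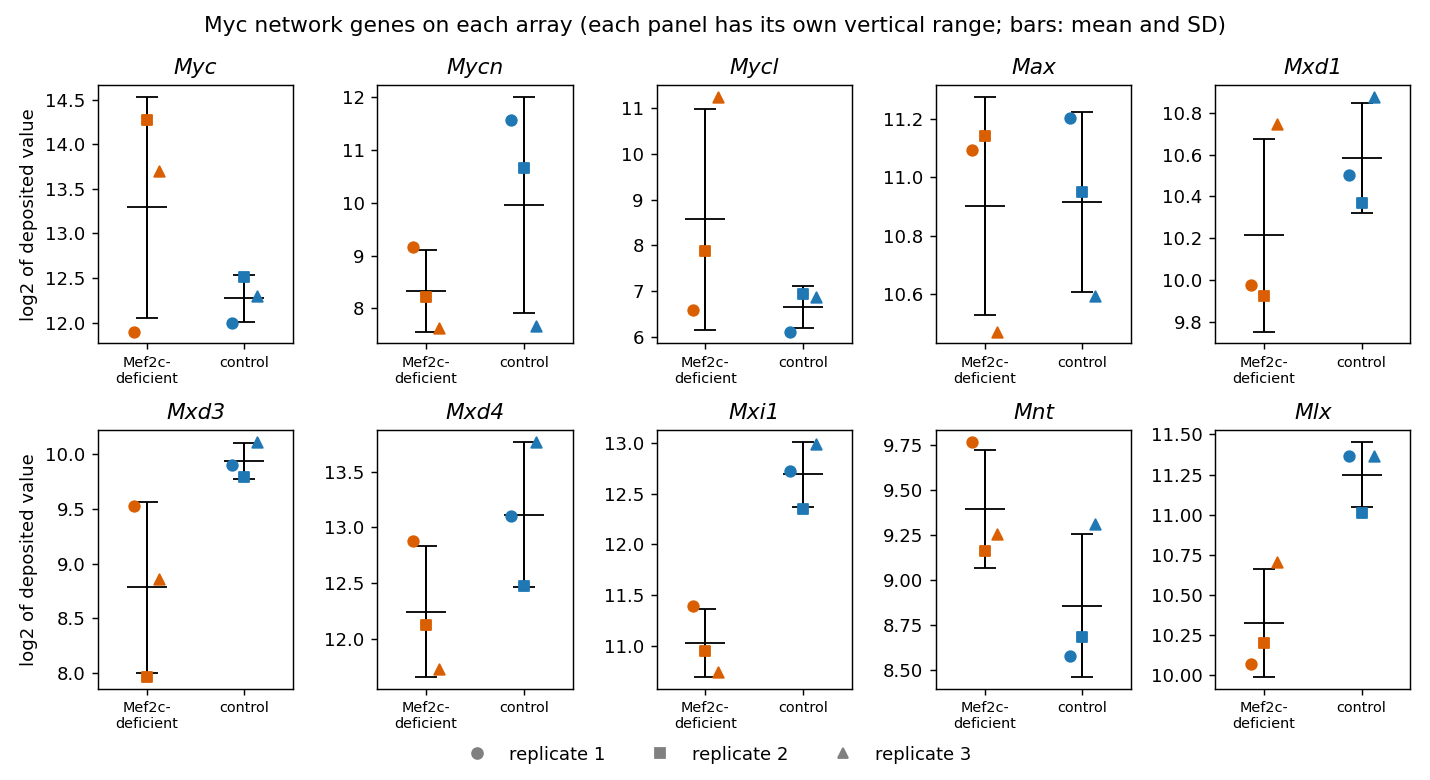
Log2 of the deposited value (vertical axis, with a range of its own in each panel) of 10 *Myc* network genes on 3 Mef2c-deficient (orange) and 3 control arrays (blue), with a symbol for each replicate number and the mean and SD of each group in black. *Mxi1* lies between 10.74 and 11.40 on the Mef2c-deficient arrays and between 12.35 and 12.99 on the control arrays, while the groups overlap in *Myc*.

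Among the antagonists, *Mxi1* showed the clearest separation. It had log2 values of 11.40, 10.95 and 10.74 on Mef2c-deficient arrays 1 to 3, against 12.73, 12.35 and 12.99 on control arrays 1 to 3. The highest Mef2c-deficient array thus lay below the lowest control array. The means were 11.03 ± 0.33 and 12.69 ± 0.32 (SD, n = 3 each), and the log2 difference was -1.66 (95% interval -2.40 to -0.92), which is 3.16-fold in the deposited values (2.22-fold if they were powers of e). Relative to the median of all genes it was -1.30, and 3.82% of all genes had a difference as low. The limma p was 0.000993 and the adjusted p 0.0861. In 20 alternatives the difference stayed between -1.84 and -1.13, each with an unadjusted limma p under 0.05, while the adjusted p ran from 0.0222 with array weights to 0.340 without the first control array.

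*Mxd3* encodes an antagonist that, unlike its relatives, is made in dividing cells during S phase. Its log2 values were 9.53, 7.96 and 8.86 on the Mef2c-deficient arrays, against 9.90, 9.79 and 10.12 on the control arrays. The groups did not overlap, but the first Mef2c-deficient array was close to the controls and the second far below them. The log2 difference was -1.15 (SE 0.42; limma adjusted p = 0.155), and it was -0.74 without the second Mef2c-deficient array (adjusted p = 0.218). After quantile normalization, cyclic loess and centring the difference was -1.02, -1.03 and -0.86, and the unadjusted p was above 0.05 in these and 6 further alternatives of the 20.

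*Mxd4* encodes an antagonist linked with the exit from the cell cycle. It had log2 values of 12.88, 12.12 and 11.73 on the Mef2c-deficient arrays, against 13.10, 12.47 and 13.77 on the control arrays. The groups overlapped through the second control array. The difference of -0.87 (SE 0.45; limma adjusted p = 0.239) rested largely on the arrays of number 3, since the differences within numbers 1 to 3 were -0.22, -0.35 and -2.04. Without the third control array it was -0.54, and without both arrays of number 3 it was -0.28 (adjusted p = 0.655).

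*Mxd1*, the antagonist of terminally differentiating cells such as granulocytes, had values of 9.98, 9.92 and 10.75 on the Mef2c-deficient arrays and of 10.50, 10.37 and 10.88 on the control arrays. Its difference of -0.37 was close to the median of -0.36 over the genes that passed the filter (limma adjusted p = 0.452), and was -0.01 after cyclic loess. Without the third Mef2c-deficient array it was -0.63 (adjusted p = 0.184), without the second -0.22 and without the third control array also -0.22. In each group the highest value came from the third array. Neutrophil markers were highest on those arrays too, and their part in the *Mxd1* values was not tested. *Mnt*, the broadly expressed antagonist, went the other way, with values of 9.77, 9.16 and 9.25 on the Mef2c-deficient arrays and of 8.58, 8.68 and 9.31 on the control arrays. The overlap came from the third control array. The difference was 0.54 (SE 0.33; limma adjusted p = 0.296), 0.89 above the median gene, and it ran from 0.35 without the first Mef2c-deficient array (adjusted p = 0.512) to 0.83 without the arrays of number 3 (adjusted p = 0.199).

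*Max* itself, the obligate partner, had log2 values of 11.09, 11.14 and 10.47 on the Mef2c-deficient arrays and of 11.20, 10.95 and 10.59 on the control arrays. The groups covered nearly the same range, and in both the third array was lowest. The difference of -0.01 had a 95% interval of -0.77 to 0.74, which does not show that the level was the same. Its sign depended on the scaling, with 0.39 after quantile normalization, 0.42 after cyclic loess and 0.28 after centring. *Mlx* had values of 10.07, 10.20 and 10.70 on the Mef2c-deficient arrays, against 11.37, 11.01 and 11.37 on the control arrays, without overlap. Its difference was -0.92 (SE 0.30; limma adjusted p = 0.135), which is 1.90-fold in the deposited values (1.56-fold if they were powers of e), and -0.57 relative to all genes. With array weights its adjusted p was 0.0425, and its unadjusted p was above 0.05 after quantile normalization (0.114), cyclic loess (0.133) and centring (0.0756), with differences of -0.54, -0.50 and -0.63. Of the E-box genes shown above, *Mlx* and *Mxd4* thus had negative differences, *Mnt* a positive difference and *Max* a difference near 0.

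**Figure D2:**
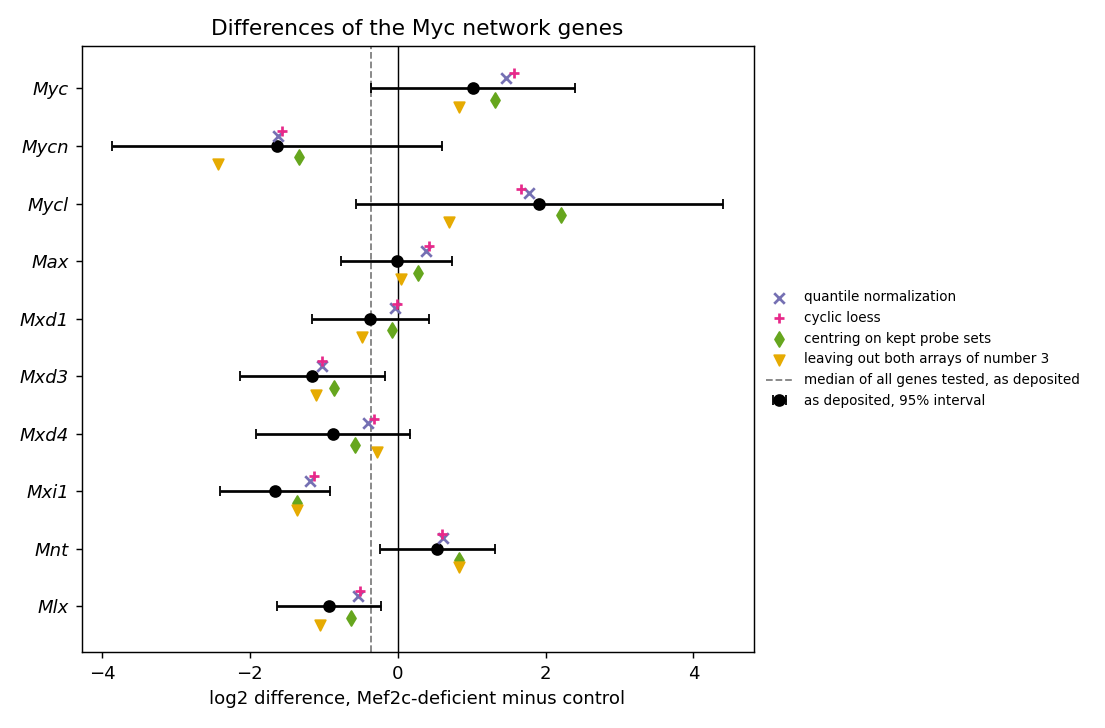
Log2 difference, Mef2c-deficient minus control (horizontal axis), of the 10 genes, with the 95% interval of the limma fit on the values as deposited (black), under 3 other scalings and without both arrays of number 3 (coloured symbols). The intervals of *Mxi1*, *Mxd3* and *Mlx* lie below 0, and the dashed line marks the median of all genes tested at -0.36.

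The MYC genes themselves differed in direction. *Myc* had log2 values of 11.90, 14.28 and 13.71 on Mef2c-deficient arrays 1 to 3, against 11.996, 12.51 and 12.30 on control arrays 1 to 3. The second and the third Mef2c-deficient arrays lay above all controls and the first below them. The means were 13.29 ± 1.24 and 12.27 ± 0.26 (SD, n = 3 each), with a difference of 1.02 (SE 0.59; limma adjusted p = 0.274). The SD was thus 4.80 times as large in Mef2c-deficient as in control cells. Without the first Mef2c-deficient array the difference was 1.72 (adjusted p = 0.0889), and without the second it was 0.53 (adjusted p = 0.522). Relative to the median of all genes the difference was 1.38, and 95.35% of all genes had a lower one. After quantile normalization the *Myc* difference was 1.47, after cyclic loess 1.58 and after centring 1.32, each with an unadjusted limma p under 0.05 and with adjusted p of 0.239, 0.223 and 0.199.

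*Myc* was highest on the second Mef2c-deficient array, where the summed value of markers of later B cells was also highest. Of 8 such markers 6 were measured and 3 had a higher mean in Mef2c-deficient cells. The log2 of their summed value was 16.72, 18.32 and 17.08 on the Mef2c-deficient arrays, against 16.19 to 16.74 on the control arrays. The complement receptor gene *Cr2* reached 14.97 on that second array, against 11.07 and 11.997 on the other Mef2c-deficient arrays and 11.01 to 12.32 on the control arrays. *Ms4a1*, *Ccr7* and *Cd22* also had their highest value there, *Cd22* by little (13.88, against 13.87 on the third control array), while *Fcer2a* and *Ciita* did not. *Fcer2a*, *Cd22* and *Ciita* had lower means in Mef2c-deficient cells, with differences of -1.59, -1.36 and -0.89. Relative to the control mean, the median over the 6 markers was -0.69, 1.24 and -0.83 on Mef2c-deficient arrays 1 to 3, where *Myc* stood at -0.37, 2.01 and 1.44. The part of these cells in the *Myc* values was not tested. The 3 genes whose profile over the 6 arrays came closest to that of *Myc* were *Il10ra*, which encodes a chain of the interleukin 10 receptor, *Pcnx4* and *Armc3*. Their root mean square differences from the *Myc* profile, each centred on its mean, were 0.18, 0.21 and 0.22 on the log2 scale, out of 11270 genes compared.

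*Mycn* had log2 values of 9.16, 8.22 and 7.62 on the Mef2c-deficient arrays, against 11.58, 10.66 and 7.67 on the control arrays. The third control array was as low as the third Mef2c-deficient array, and the other controls lay above all Mef2c-deficient arrays. The difference was -1.63 (SE 0.96; limma adjusted p = 0.279). Without the third control array it was -2.78, with a limma p of 0.00235 and an adjusted p of 0.272, and without the first control array it was -0.83 (adjusted p = 0.589). Blocking on the replicate number gave an unadjusted p of 0.0190 and an adjusted p of 0.121. Within numbers 1 to 3 the differences were -2.42, -2.43 and -0.04.

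*Mycl*, which is known from dendritic cells, had log2 values of 6.58, 7.87 and 11.24 on the Mef2c-deficient arrays, against 6.12, 6.94 and 6.89 on the control arrays. It was dim on all arrays except the third Mef2c-deficient one, and the filter of 7.26 was passed on Mef2c-deficient arrays 2 and 3 only, so that its place among the tested genes came from the group in which it was high. The difference was 1.92 (SE 1.06; limma adjusted p = 0.262), 0.58 without the third Mef2c-deficient array (adjusted p = 0.396) and 2.91 without the first (adjusted p = 0.159). With the replicate number as a block its unadjusted p was 0.0378 and its adjusted p 0.152.

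Markers of dendritic cells, like *Mycl*, were highest on the third Mef2c-deficient array. Of 10 markers of plasmacytoid dendritic cells 8 were measured, and all 8 had a higher mean in Mef2c-deficient cells. Their summed value, as log2, ranged from 18.46 to 20.25 on Mef2c-deficient arrays and from 16.95 to 18.60 on control arrays. The brightest marker on each array was *Ly6d*, at 18.57, 17.61 and 18.68 on the Mef2c-deficient arrays and 16.79 to 18.30 on the control arrays. Except on the third Mef2c-deficient array the sum rested largely on *Ly6d* and says little of the other markers. *Siglech*, the surface lectin that defines plasmacytoid dendritic cells, had values of 14.41, 16.55 and 18.54 on the Mef2c-deficient arrays and of 12.59, 12.51 and 15.53 on the control arrays. Of 7 markers of conventional dendritic cells 5 were measured and 4 had a higher mean, with summed values of 11.70, 12.14 and 15.55 on the Mef2c-deficient arrays and of 9.66 to 11.45 on the control arrays. *Xcr1* lay below the filter, whereas *Itgax* had values of 9.35, 10.34 and 14.08 on the Mef2c-deficient arrays and of 6.86 to 9.27 on the control arrays. Neutrophil markers, 8 of 9 measured, had summed values of 15.49 to 20.30 on Mef2c-deficient arrays and of 15.06 to 17.45 on control arrays. Those of monocytes and macrophages, 5 of 7 measured, had 12.14 to 17.49 and 12.39 to 14.59. Without the arrays of number 3 the difference of *Mxi1* was -1.36 (limma adjusted p = 0.126). The part of these cells in the *Mycl*, *Mycn* and *Mxi1* values was not tested.

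**Figure D3:**
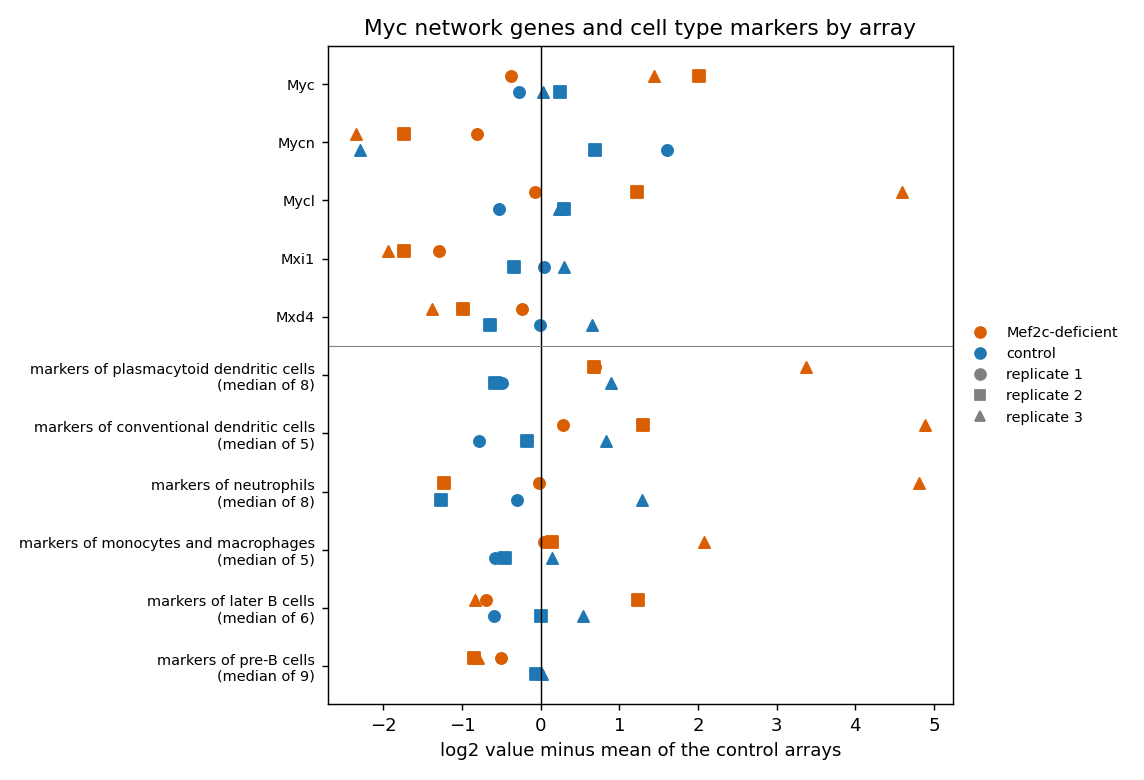
Difference from the control mean on the log2 scale (horizontal axis) of 5 network genes and, below the line, the median of the same quantity over the measured markers of 6 cell types, on 3 Mef2c-deficient (orange) and 3 control arrays (blue), with a symbol for each replicate number. *Mycl* and the markers of conventional dendritic cells both lie farthest to the right on the third Mef2c-deficient array, at 4.60 and 4.88, while *Mxi1* lies to the left on all 3 Mef2c-deficient arrays.

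Because the MXD proteins, MXI1 and MNT compete with MYC for MAX, the ratio of *Myc* to each other network gene was read within each array, relative to the control mean. The ratios to *Max*, *Mlx*, *Mycn* and *Mycl*, which are not among these antagonists, have no such reading. All are ratios of RNA values and do not give the balance of the proteins. *Myc* over *Mxi1* stood at 0.92, 3.74 and 3.38 on the log2 scale on the Mef2c-deficient arrays, against -0.31, 0.58 and -0.27 on the control arrays. The groups did not overlap, since the first Mef2c-deficient array, which had no more *Myc* than the controls, had less *Mxi1*. *Myc* over *Mlx* likewise separated the groups, at 0.80, 3.06 and 1.98 against -0.39, 0.48 and -0.08. *Myc* over *Max*, at -0.55, 1.78 and 1.88 against -0.56, 0.21 and 0.36, did not, and *Myc* over *Mnt*, at -1.28, 1.70 and 1.04 against 0.01, 0.41 and -0.42, did not either. Of the 9 ratios of *Myc* to another network gene, those to *Mxi1* and *Mlx* separated the groups and the other 7, including those to the antagonists *Mxd1*, *Mxd3* and *Mxd4*, overlapped. No test was made of these ratios, which combine values given above. *Mxi1* and *Mlx* were already lower without overlap on their own, as were 27.1% of all genes. The share of all genes whose ratio to *Myc* separates the groups was not worked out, so that the count cannot be set against it.

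Further genes of the network were read from lists of cofactors, regulators and targets, whose counts are to be read against the 20.9% of all genes that were lower and the 5.32% that were higher at an unadjusted p under 0.05. Of the 40 genes named from them 34 reached that p, and 14, 17 and 8 of these 34 lost it after quantile normalization, cyclic loess and centring. In these lists a gene is called measured if it passed the filter on low values. Of 9 other E-box factors and partners, all with a probe set, 7 were measured and 6 of these had a lower mean (median difference -0.48, and -0.12 against the median gene). At an unadjusted p under 0.05, 2 (28.6%) were lower, *Usf2* (-1.11, SE 0.42) and *Usf1* (-1.07, SE 0.44), which encode factors that bind the same E-box as MYC. Without the third Mef2c-deficient array these were -0.67 and -0.60, with unadjusted p above 0.05. *Mlxip*, the gene of MondoA, had values of 13.14, 14.37 and 11.72 on Mef2c-deficient arrays and of 13.96, 14.57 and 14.10 on control arrays, with a difference of -1.13 (SE 0.63) and overlapping groups, or -0.46 without the third Mef2c-deficient array and -1.78 without the second. *Tfap4*, a known target of MYC, differed by -0.48 (SE 0.31), or -0.24 without the first control array. The limma adjusted p of these 4 genes ran from 0.163 to 0.315.

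Of 14 measured MYC cofactors 13 had a lower mean, with a median difference of -0.89 (-0.53 against the median gene). Of these, 6 (42.9%) had lower values at an unadjusted p under 0.05 and 0 higher values. Without the third Mef2c-deficient array the median was -0.57, and without both arrays of number 3 it was -0.56. The chromatin remodelling subunits *Actl6a* (-1.63, SE 0.35), *Ruvbl1* (-1.17, SE 0.31) and *Ep400* (-1.60, SE 0.56) and the MYC-recruiting histone methyltransferase subunit *Wdr5* (-1.45, SE 0.32) had the smallest p, with limma adjusted p of 0.0934 to 0.147. The name of the *Actl6a* probe set marks it as one that can cross-hybridise. Its values on the Mef2c-deficient arrays were 7.52, 7.44 and 8.45, the first and second close to the filter on low values. The size of the *Actl6a* difference is thus uncertain. *Ep400* differed by -0.93 without the third Mef2c-deficient array. *Wdr5* had values of 11.88, 12.38 and 11.49 on Mef2c-deficient arrays, against 13.22, 13.43 and 13.46 on control arrays. Corepressors that the MXD proteins, MXI1 and MNT use were lower as well by their means, in 11 of 12 measured genes (median -0.92, and -0.56 against the median gene). An unadjusted p under 0.05 was reached by 7 lower (58.3%) and 0 higher genes, with *Suds3* (-1.04, SE 0.27), *Sap30* (-1.41, SE 0.43), *Ing1* (-0.94, SE 0.30) and *Rbbp7* (-0.89, SE 0.28), all subunits of SIN3 complexes, in front (limma adjusted p 0.108 to 0.134). After quantile normalization, cyclic loess and centring the medians were -0.61, -0.57 and -0.60 for the cofactors and -0.57, -0.42 and -0.63 for the corepressors.

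Genes that act on the turnover of the MYC protein had a median difference of -1.30 (-0.95 against the median gene) over 15 measured genes, and an unadjusted p under 0.05 was reached by 11 lower genes (73.3%) and 1 higher gene. The median was -0.63 (-0.37 against the median gene) without both arrays of number 3, -0.83 after quantile normalization and -0.76 after cyclic loess. The list mixes genes whose products shield MYC with genes whose products promote its breakdown. Its median and counts thus have no direction for the MYC protein. *Cip2a*, whose product shields MYC from the phosphatase PP2A, had values of 11.24, 9.69 and 10.04 on Mef2c-deficient arrays, against 13.64, 13.21 and 12.47 on control arrays (-2.79, SE 0.49; limma adjusted p = 0.0769). *Skp2*, which encodes the F-box protein of a ubiquitin ligase that acts on MYC, had values of 6.32, 5.26 and 7.37 on the Mef2c-deficient arrays, against 8.33, 9.07 and 9.58 on the control arrays. Its Mef2c-deficient mean of 6.32 lay below the filter of 7.26, so that it was tested through the group in which it was high and the size of its difference is uncertain. *Trim32* differed by -1.45 (SE 0.38) and *Btrc* by -1.41 (SE 0.37; limma adjusted p of 0.109 for both). The gene with a higher value was *Ppp2r5a*, a regulatory subunit of PP2A that promotes MYC breakdown, at 0.81 (SE 0.30; limma adjusted p = 0.156). This gene was picked as the exception of the list once the values were known. *Cip2a*, *Skp2*, *Aurka* and *Plk1* in this list also vary with the cell cycle.

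Among 12 regulators of *Myc* transcription in pre-B cells, 11 had a lower mean (median -0.59, and -0.23 against the median gene), and 3 (25%) were lower at an unadjusted p under 0.05. Without both arrays of number 3 the median was -0.28, and after quantile normalization and cyclic loess it was -0.35 and -0.19. These were *Lef1*, *Il7r* and *Irf4*, with differences of -1.22, -1.09 and -1.32, followed by the looping factor gene *Ctcf* at -0.58 (limma adjusted p 0.0954 to 0.216 over these 4 genes). *Irf4*, which encodes a factor that restrains pre-B-cell division, had values of 17.19, 16.53 and 15.21 on the Mef2c-deficient arrays, against 17.90, 17.49 and 17.51 on the control arrays. The third Mef2c-deficient array was the farthest from the controls, and the difference was -0.78 without it.

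Genes that MYC is known to activate were read in 3 lists. Of 28 measured targets in the nucleolus and ribosome biogenesis, 25 had a lower mean (median -0.57, and -0.21 against the median gene), and an unadjusted p under 0.05 was reached by 5 lower (17.9%) and 0 higher genes, a share close to that of all genes. After quantile normalization, cyclic loess and centring the median was -0.23, -0.14 and -0.28. With no filter on low values it stood at -0.64 against the median gene. On Mef2c-deficient arrays 1 to 3, relative to the control mean, the list's median was -0.54, -0.34 and -0.80. That of the metabolism list was -0.75, -0.33 and 0.07, that of the cell cycle list was -1.03, -1.63 and -0.90, and the *Myc* value was -0.37, 2.01 and 1.44. *Nolc1* (-1.68, SE 0.39) and *Dkc1* (-1.48, SE 0.38), which act in small nucleolar RNA particles, *Pa2g4* (-1.23, SE 0.35) and *Bysl* (-0.96, SE 0.29) led the list (limma adjusted p 0.0960 to 0.127).

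Targets in metabolism and transport had a median of -0.56 (-0.20 against the median gene), with 14 of 19 means lower, and an unadjusted p under 0.05 in 5 lower genes (26.3%) and 1 higher gene (5.26%). Without the second Mef2c-deficient array the median was -0.22, which is 0.15 above the median gene, and without the first it was -0.28, or 0.01 above it. Without the third control array it was -0.34, and after quantile normalization, cyclic loess and centring it was -0.33, -0.14 and -0.27. *Mthfd2*, of mitochondrial folate metabolism, differed by -1.74 (SE 0.41), the lactate transporter gene *Slc16a1* by -1.30 (SE 0.35) and *Tfam*, of mitochondrial DNA maintenance, by -1.08 (SE 0.31; limma adjusted p 0.0975 to 0.118). The nucleoside transporter gene *Slc29a2* went the other way, with values of 14.12, 11.27 and 8.85 on the Mef2c-deficient arrays, against 8.76, 7.76 and 7.37 on the control arrays (3.45, SE 1.18; limma adjusted p = 0.144). The groups did not overlap, but the third Mef2c-deficient array lay close to the controls. The difference was 2.09 without the first Mef2c-deficient array, and the name of its probe set marks it as one that can cross-hybridise.

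Targets in the cell cycle had the lowest median of the 3 target lists as deposited and in all 20 alternatives, at -1.26 (-0.90 against the median gene). Of 16 measured genes, 13 had a lower mean and 3 a higher one, with a highest difference of 2.01. An unadjusted p under 0.05 was reached by 12 with lower (75%) and 0 with higher values. *Bub1b*, of the spindle checkpoint, had values of 11.88, 11.07 and 11.48 on the Mef2c-deficient arrays, against 13.74, 13.64 and 13.06 on the control arrays (-2.001, SE 0.34; limma adjusted p = 0.0769). *Mcm4*, of the replicative helicase, differed by -1.51 (SE 0.26), *E2f2* by -1.64 (SE 0.38) and *Cdca7* by -1.43 (SE 0.35). E2F factors also act on many genes of this list.

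Of the genes that MYC is known to repress, 9 had a probe set, and the 6 that passed the filter all had lower means. Their median was -1.02 (-0.67 after subtracting that of all genes), and 4 (66.7%) had an unadjusted p under 0.05. After quantile normalization and cyclic loess the median was -0.57 and -0.49. *Ndrg1* had values of 9.13, 9.62 and 10.17 on the Mef2c-deficient arrays, against 11.62, 11.98 and 12.04 on the control arrays (-2.24, SE 0.35; limma adjusted p = 0.0745). *Cdkn1a*, the p21 inhibitor of cyclin-dependent kinases, differed by -1.53 (SE 0.55), and the stress genes *Gadd45a* and *Gadd45b* by -1.02 (SE 0.28) and -1.03 (SE 0.43). Without the third Mef2c-deficient array *Gadd45b* differed by -0.66. Of 4 measured targets of MLX with MondoA or ChREBP, *Klf10* had lower values without overlap (-1.10, SE 0.35; limma adjusted p = 0.134), and *Pklr* (0.91), *Txnip* (0.56) and *Arrdc3* (-0.79) had overlapping groups, and each of these 3 moved by over 1.5 times with 1 array left out, *Pklr* to 0.53 without the first and *Txnip* and *Arrdc3* to 0.31 and -0.23 without the third Mef2c-deficient array. The median of these 4 was -0.12, and it was above 0 after quantile normalization (0.21), cyclic loess (0.36) and centring (0.18) and without the first control array (0.08) or the third Mef2c-deficient array (0.04). By limma, the adjusted threshold was passed by 0 genes of these lists, whereas 21 of the 40 named genes passed it with array weights and 5 without the third Mef2c-deficient array.

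**Figure D4:**
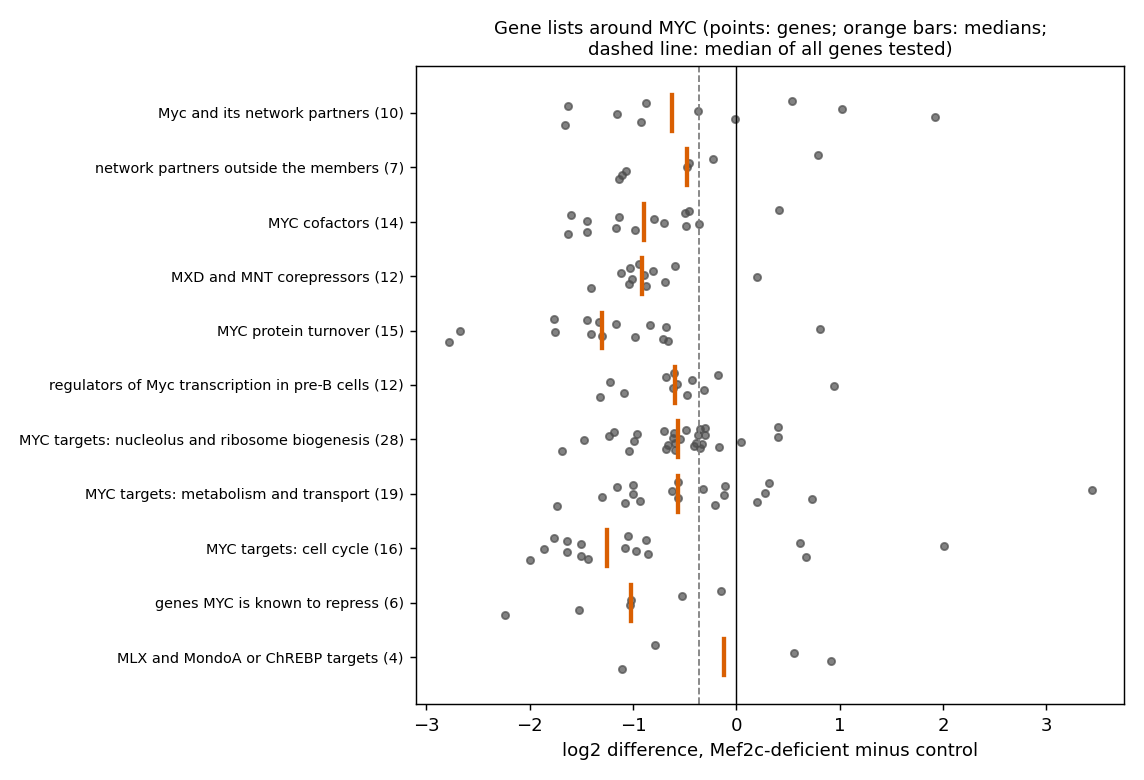
Log2 difference, Mef2c-deficient minus control (horizontal axis), of each measured gene (grey points) in 11 groups around MYC, with the number of genes in parentheses and the median as an orange bar. The medians of the groups run from -1.30 for MYC protein turnover to -0.12 for targets of MLX with MondoA or ChREBP (0.21, 0.36 and 0.18 after quantile normalization, cyclic loess and centring, where the turnover genes had -0.83, -0.76 and -1.01 and the cell cycle targets -1.04, -0.95 and -0.96), and the dashed line marks the median of all genes tested at -0.36.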

How the data were processed

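RNA of sorted pre-B cells (B220+IgM-CD43-, per the study's methods) was hybridised to Affymetrix mouse genome-wide expression arrays. Per those methods, robust multiarray averaging gave background adjusted and quantile normalized values, and detection calls removed probes. The authors deposited linear intensity values of 23913 probe sets. Of all values 2.00% lay above 65535, the top of a 16-bit scanner, and the highest was 21.03 as log2 or 14.58 as natural log. The base of the scale (2 or e) is not settled. Versions of their tools: not given in the sources used here.

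Values were log2-transformed with no offset. Of 17689 probe sets with 1 symbol (the platform's annotation may be old; 17538 matched RefSeq of GRCm38.p6 by gene identifier, 0 symbols changed), those with a mean above the 40th percentile (log2 of 7.26) were kept, and the brightest represented a gene. Mef2c-deficient and control arrays were then set against each other in limma 3.58.1 under R 4.3.3 (two-sided moderated test), adjusted over 11271 genes. The fit was tested on simulated data. The members and lists were chosen with earlier results of these data known. From each list up to 4 genes with the smallest p were named, and the 3 nearest to *Myc* in profile. The sources used here give no protein sequences.

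Arrays of the same number deviated together (correlations of 0.348, 0.226 and 0.373 for numbers 1 to 3, against -0.309 to 0.129 otherwise), so that the numbers were taken to pair them. The deviations were from each group's own mean and so cancel within a group, which ties these correlations to one another. They are thus no independent evidence of pairing, and the fit reported above did not use the numbers. What a number marks is not stated in the labels. Median values per array ran from 236 to 285. Alternatives covered filters, probe set rules, scalings, an offset of 16, the scale's base, variance models, array weights, the methods' t-test on the same values, the block and each array left out. The fit without both arrays of number 3 was chosen after seeing the data.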

Additional observations from a re-analysis of the deposited data

Results flagged for a closer look

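The bioB control, a bacterial transcript added in a fixed amount to each labelled sample, is outside the genes tested and was higher on the Mef2c-deficient arrays. The median log2 difference of its 6 probe sets was 1.74 (range 1.66 to 1.84), and all 6 were higher on each Mef2c-deficient than on each control array. Its part in the values of the *Myc* network was not tested.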

How the results depend on the processing

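In 20 alternatives *Myc*, *Mycn*, *Mxd1*, *Mxd3*, *Mxd4*, *Mxi1*, *Mnt* and *Mlx* kept the sign of their difference, and *Mycl* in the 19 that could be run (it lay below the filter at the 60th percentile). *Max* changed sign after quantile normalization (0.39), cyclic loess (0.42) and centring (0.28), without both arrays of number 3 (0.041), and over the arrays left out in turn it ran from -0.17 to 0.20, with 0.13 without control replicate 1, 0.0043 without control replicate 2 and 0.20 without Mef2c-deficient replicate 3. The 40 genes named from the lists kept their sign in all 797 comparisons with an alternative, and 26 of these passed the adjusted threshold (21 with array weights, 5 without Mef2c-deficient replicate 3). Several alternatives could not change the sign of any gene. The scale's base, the variance models, the methods' t-test and the replicate block keep a difference or only rescale it. The 40 genes had also been picked by their small p in these data, so that this count does not measure robustness. At an adjusted p under 0.05, 0 network genes were lower in every alternative but array weights, which gave 2 (*Mxi1* and *Mlx*), and 0 were higher in all. At an unadjusted p under 0.05, quantile normalization, cyclic loess and centring left 1 lower (*Mxi1*), and arrays left out in turn 1 to 4. Higher were 1 after quantile normalization and cyclic loess, 2 after centring, 3 with array weights, 1 with the replicate block (*Mycl*), 1 without both arrays of number 3 and 0 to 2 with arrays left out in turn. The replicate block changed no adjusted call of a network gene.

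Over all genes, 2 were lower at an adjusted p under 0.05. This count was 0 after quantile normalization, cyclic loess and centring, with the methods' t-test, with the replicate block and without both arrays of number 3, and 1001 with array weights (153 higher). Arrays left out in turn gave 0 to 154 lower and 0 to 5 higher. At an unadjusted p under 0.05, 2353 were lower, against 1248, 1148 and 1209 under the 3 scalings in the same order and 1392 to 2668 with arrays left out in turn. The 600 higher genes became 1445 with no filter, 1461 with every probe set on its own, 249 with the 60th percentile filter, 931 with cyclic loess, 1581 with centring, 1005 with array weights and 239 to 797 with arrays left out in turn. The causes of these shifts were not tested.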

Other observations

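The E-box was also read across the array. Of 9100 tested genes with a RefSeq promoter, 1041 (11.4%) carried it. Their median log2 difference was -0.41, and that of the 8059 others was -0.37. At an unadjusted limma p under 0.05, 19.5% of the E-box genes and 21.4% of the others were lower, and 4.51% and 5.21% were higher. Over the lists of MYC targets together, 14 of 54 genes with a promoter (25.9%) carried the E-box. These 14 had a median difference of -0.40 and the other 40 one of -0.86. These values are descriptions, without a test.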
